A study of Mus musculus with 10 samples.

Results

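The genes described here encode the subunits of NF-kappa B and the proteins that hold it in check, followed across 3 SHP-1 genotypes in mouse CD4+CD25+ T cells. Their members are 10 genes (Nfkb1, Nfkb2, Rel, Rela, Relb, Nfkbia, Nfkbib, Nfkbie, Nfkbiz and Tnfaip3). Every probe set that the array annotation assigns to 1 of them and to no other gene was taken. This gave 9 of the 10 genes, of 18193 genes named on the arrays, and 19 of the 45037 probe sets tested. No probe set was assigned to Nfkb1 alone in the annotation used, so Nfkb1 was not analysed here. A probe set is the group of short probes that reports 1 transcript or stretch of transcript on an Affymetrix array.

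The cells came from lymph nodes of several sites, combined, of BALB/c mice aged 17 to 19 days, and were purified with a regulatory T cell kit and neither cultured nor treated. WT mice (4 arrays) were wild type, he mice (3 arrays) were heterozygous for the SHP-1 knockout, and me mice (3 arrays) were homozygous for it and had the motheaten phenotype. SHP-1 is a protein tyrosine phosphatase of blood cells, encoded by Ptpn6. The labels name no Cre, promoter or cell type that would limit the knockout to T cells, so the cells of an me mouse came from an animal with the phenotype. RNA was amplified from 20 ng. The labels number the arrays as biological replicates without saying whether each stands for 1 animal, so p-values measure the spread between these arrays only.

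NF-kappa B is a dimer drawn from the subunits RelA, c-Rel, RelB and the processed products of Nfkb1 and Nfkb2. In resting cells the inhibitors IkappaB alpha, beta and epsilon (Nfkbia, Nfkbib, Nfkbie) hold the dimers in the cytoplasm until IkappaB kinase marks the inhibitors for destruction. Nfkbia and Tnfaip3 (A20, a ubiquitin-editing enzyme) are themselves transcribed by NF-kappa B and close a negative feedback loop. In T cells the pathway lies downstream of the antigen receptor, CD28 and the TNF receptor family. c-Rel is known for its part in Foxp3 expression and in the formation of regulatory T cells in the thymus.

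Since some members are known targets of the dimers, their promoters were searched for the sequence NF-kappa B binds. RefSeq promoter windows (GRCm38.p6, 250 bases before to 50 bases after a start) held 7 of the 10 genes, in 10 windows. The kappa B decamer consensus, searched on both strands, was found in 5 of these 7 genes: Nfkb2, Rel, Nfkbia, Nfkbie and Tnfaip3. Among all 27025 genes with a window, 9.55% held it. Rela and Nfkbib, the other two genes with a window, held no match. The following stretches are shown because they carry a match in genes whose transcripts are described below. They are written 5' to 3' on the strand of the gene, and the capitals mark the decamer. A match is a description of letters and was not measured as a binding site here.
Nfkb2 (chr19:46304678-46304727, plus strand): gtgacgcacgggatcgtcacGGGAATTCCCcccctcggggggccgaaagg
Rel (chr11:23771032-23771081, minus strand): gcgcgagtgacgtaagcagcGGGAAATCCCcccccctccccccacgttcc
Nfkbia (chr12:55492648-55492696, minus strand): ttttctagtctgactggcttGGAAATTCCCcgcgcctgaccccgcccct
Nfkbie (chr17:45555574-45555623, plus strand): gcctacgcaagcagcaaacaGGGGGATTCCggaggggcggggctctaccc
Tnfaip3 (chr10:19015411-19015442, minus strand): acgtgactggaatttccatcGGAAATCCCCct

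The decamer shown ends 20 bases before the start in Nfkbia and 3 bases before it in Tnfaip3. The decamers shown for Nfkb2, Rel and Nfkbie end 30, 83 and 97 bases before a start, which for Nfkb2 lies inside the gene. Only 1 match per gene is shown, and 3 genes held others in their windows. Nfkb2 has further matches, among them 1 that ends 2 bases before the same start, Tnfaip3 has another that ends 116 bases before its start, and Rel has an overlapping one that ends 82 bases before it.

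Levels below are log2(intensity + 32) after quantile normalisation, and each difference is on the log2 scale, followed by its standard error from limma. Ptpn6, the targeted gene, was lower in me than in WT at both of its probe sets without overlap, with he between them. The me minus WT difference was -0.72 ± 0.10 at 1456694_x_at and -1.09 ± 0.14 at 1460188_at. A 2-sided exact permutation test over arrays gave p = 0.0571 for me against WT at each, the smallest value that 3 against 4 arrays allow; in the limma fit over all probe sets the adjusted p was 1 at both. By correlation the arrays formed an array set A (WT 1, WT 2, he 1, me 1, me 3) and an array set B (WT 3, WT 4, he 2, he 3, me 2), which the labels do not name. Correlations were 0.970 to 0.996 within a set and 0.854 to 0.944 between sets, and each set held all 3 genotypes. A second value, with array set as a block, therefore follows for many members. All 5 regulatory T cell markers lay above the median level of all probe sets, with Foxp3 between 10.60 and 11.58. They summed to 12280 to 14821 on the linear scale in me and 10747 to 12355 in WT, with a higher mean in me for 4. The Gapdh 3' to 5' ratio was 9.92 to 13.83 for me, 7.84 to 9.53 for WT and 7.88 to 9.71 for he. Every me array thus lay above every WT and he array. The RNA was amplified, so the ratio was not read as a measure of RNA integrity alone. Plasma cell markers summed to 2768 to 4469 on the linear scale in me and 2391 to 3589 in WT. All 5 had a higher mean in me, led by Jchain with a difference of 2.23 ± 0.43 (adjusted p = 1). The differences at Xbp1, the brightest of the 5, and at Sdc1 were each 0.03 ± 0.23. Neutrophil markers summed to 1301 to 1913 in me and 1258 to 1529 in WT, with a higher mean in me for 7 of 8, S100a8 at 0.56 ± 0.14 and S100a9 at 0.42 ± 0.12 among them. Of the 8, 5 lay above the median level of all probe sets. S100a8 and S100a9 lay below it, with mean levels at percentiles 33.3 and 19.3. Macrophage and monocyte markers summed to 1199 to 1718 in me and 1093 to 1317 in WT, with a higher mean in me for 6 of 7, and Ly86 at 0.42 ± 0.14. The mean was higher in me for 4 of 6 CD4 T cell, 3 of 6 B cell, 4 of 6 dendritic and 4 of 8 CD8 and NK markers. The marker sums of every cell type overlapped between me and WT, and no marker passed the test. The part that these measures have in the differences below was not tested. In RNA from a cell population, fewer cells of a type and less RNA per cell cannot be told apart.

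No member differed between genotypes at an adjusted p under 0.05. In me against WT, 0 of 19 member probe sets passed, beside 0% of all 45037 probe sets, and the fit blocked on array set passed 0 of 19 beside 0.00666%. The other two comparisons, he with WT and me with he, likewise counted 0 of 19 beside 0%, blocked or not. The moderated F test over the 3 genotypes gave 0 of 19 beside 0%. At an unadjusted p under 0.05 the members counted 0 in me against WT (background 0.626%), 0 in he against WT (0.298%), 1 in me against he (0.668%) and 0 in the F test (0.446%). With the block these counts were 0 (4.31%), 0 (2.13%), 2 (3.21%) and 1 (2.86%). They depended on where me 3 was placed. Of all arrays, me 3 correlated most with the other set (mean 0.929, beside 0.976 within set A). With me 3 in the other set, the member counts were 2, 0, 4 and 2, and 0 passed at an adjusted p under 0.05. The background was then above 3.21% in me against he. It was below 4.31% in me against WT, 2.13% in he against WT and 2.86% in the F test. The 4 in me minus he included Nfkbie 1431843_a_at (0.34 ± 0.08) and 1458299_s_at (0.48 ± 0.18). The others were Nfkbia 1448306_at (0.22 ± 0.07) and Nfkbib 1421266_s_at (0.32 ± 0.14). The 2 in me minus WT were Nfkbie 1431843_a_at (0.24 ± 0.08) and Tnfaip3 1450829_at (0.21 ± 0.08).

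**Figure D1:**
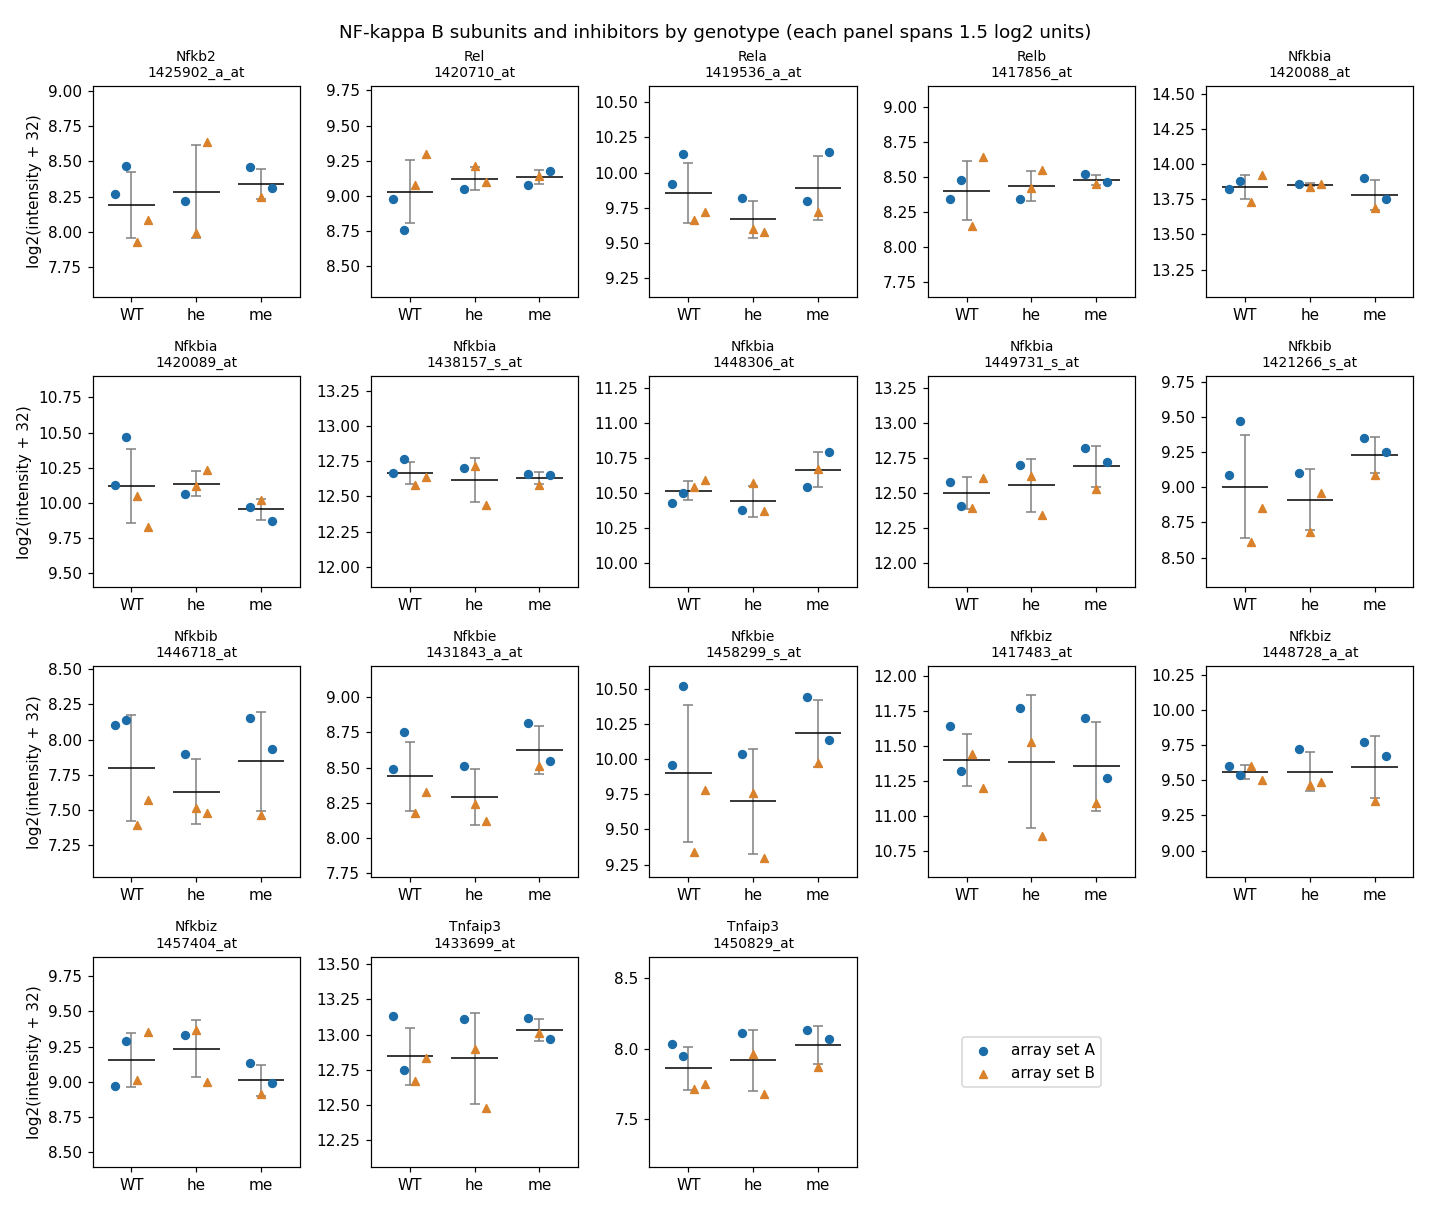
Log2(intensity + 32) of 18 member probe sets on each of the 10 arrays, by genotype, with 1 panel per probe set and every panel spanning 1.5 log2 units. Circles are array set A, triangles array set B, the line is the group mean and the bar its SD (n = 4, 3 and 3). The genotypes overlap in nearly every panel, and only Nfkbie 1431843_a_at and Nfkbia 1420089_at separate me from he.

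Among the subunits, Rel, which encodes c-Rel, had 1 probe set, with nearly equal levels in he and me. The level at 1420710_at was 8.98, 8.76, 9.08 and 9.30 on the WT arrays, 9.05, 9.21 and 9.10 on the he arrays and 9.08, 9.14 and 9.18 on the me arrays. All 6 he and me arrays lay within the WT range, whose ends were WT 2 and WT 4. The difference was 0.11 ± 0.12 for me minus WT (95% interval -0.16 to 0.37), 0.09 ± 0.12 for he minus WT and 0.01 ± 0.13 for me minus he, with a limma adjusted p of 1 for the first of these. Without WT 2, the lowest array, me minus WT was 0.0144 and he minus WT 0.0003, and without WT 4 they were 0.199 and 0.185. As a linear ratio, the me to WT interval ran from 0.894 to 1.29.

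Rela encodes RelA, the subunit with a strong activation domain found in most canonical dimers. At 1419536_a_at its level was 9.92, 10.13, 9.66 and 9.72 on the WT arrays, 9.82, 9.60 and 9.58 on the he arrays and 9.80, 9.72 and 10.15 on the me arrays. The 5 arrays of set A read 9.80 to 10.15 and those of set B 9.58 to 9.72, without overlap between the sets. Within set A, me 1 and me 3 differed by more than me 1 and me 2 of different sets. The he minus WT difference was -0.19 ± 0.14 (95% interval -0.52 to 0.13) and -0.15 ± 0.09 with array set as a block. For me minus WT it was 0.03 ± 0.14 without the block and -0.01 ± 0.09 with it. RelB, the partner of processed Nfkb2 in the noncanonical pathway, was measured by Relb 1417856_at. Its level was 8.34, 8.48, 8.15 and 8.64 on the WT arrays, 8.34, 8.42 and 8.55 on the he arrays and 8.52, 8.45 and 8.46 on the me arrays. The 3 me arrays were within 0.1 of each other and inside the WT range, with a me minus WT difference of 0.08 ± 0.11 (95% interval -0.18 to 0.33).

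Nfkb2 encodes p100, the precursor of p52, and its 2 probe sets disagreed. The first, 1425902_a_at, read 8.27, 8.47, 7.93 and 8.08 on the WT arrays, 8.22, 7.99 and 8.64 on the he arrays and 8.46, 8.25 and 8.31 on the me arrays. Its genotypes overlapped, with a me minus WT difference of 0.15 ± 0.17 (95% interval -0.24 to 0.54). The second, 1429128_x_at, read 8.72, 9.16, 12.81 and 12.63 on the WT arrays, 8.75, 12.70 and 12.99 on the he arrays and 8.85, 12.94 and 9.59 on the me arrays. Here every array of set B lay above 12.6 and every array of set A below 9.6, in all 3 genotypes. The mean difference between the sets, taken with genotype in the fit, was 3.85 on the log2 scale, or 14.5-fold on the linear scale, against a median absolute shift of 0.248 over all probe sets. The first probe set shifted by -0.17, with overlapping sets. In Affymetrix naming the suffix _x_at marks a probe set whose probes can also bind other transcripts. The value at 1429128_x_at was not read as a level of Nfkb2, but it stays in the counts and medians over the member probe sets. Without the block its me minus WT difference was -0.37 ± 1.52 (95% interval -3.82 to 3.08). With array set as a block the estimate became 0.27 ± 0.18 (95% interval -0.15 to 0.69), and the within-set values were 0.28 in set A and 0.22 in set B.

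**Figure D2:**
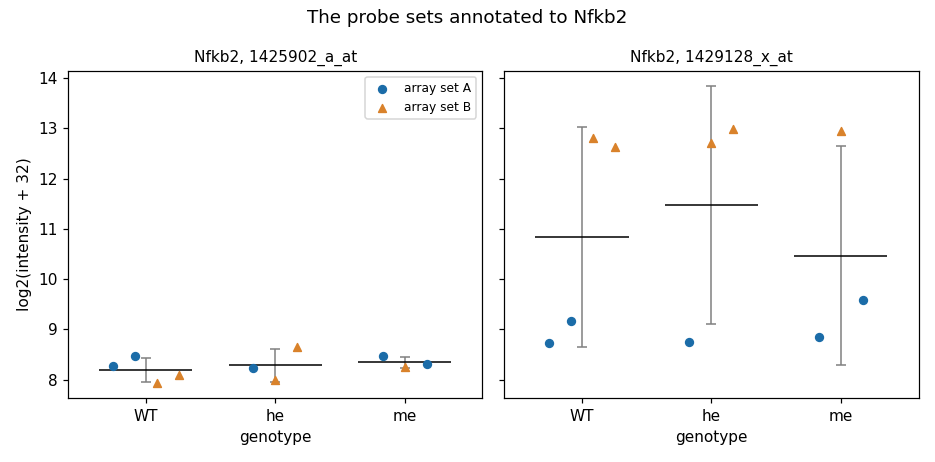
Log2(intensity + 32) of both Nfkb2 probe sets on each array, by genotype, with circles for array set A, triangles for array set B, lines for group means and bars for SD (n = 4, 3 and 3). At 1429128_x_at set A reads 8.72 to 9.59 and set B 12.63 to 12.99 in every genotype, while at 1425902_a_at the sets overlap.

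Of the other members, 3 probe sets also separated the array sets without overlap, all lower in set B, with shifts of -0.28 at Rela and of -0.38 and -0.56 at Nfkbib. The remaining 15 overlapped. Over all probe sets, 51.4% did not overlap between the sets.

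The inhibitor Nfkbia (IkappaB alpha) had 5 probe sets, whose differences between genotypes went in both directions. The brightest, 1420088_at, read 13.82, 13.88, 13.73 and 13.92 on the WT arrays, 13.86, 13.84 and 13.86 on the he arrays and 13.90, 13.69 and 13.75 on the me arrays. All 10 arrays lay within 0.23 log2 units of each other, and the me to WT ratio had a 95% interval of 0.857 to 1.08. In the deposited intensity the same probe set ran from 18096 to 20315 on 4 arrays of set A and from 9883 to 13927 on the others, me 3 of set A among them, and the normalisation brought these together. The 1448306_at probe set read 10.43, 10.50, 10.54 and 10.59 on the WT arrays, 10.38, 10.57 and 10.37 on the he arrays and 10.54, 10.67 and 10.79 on the me arrays. Its me minus he difference of 0.22 ± 0.09 had an unadjusted p of 0.0345 (limma adjusted p = 0.9999), and the he and me arrays overlapped. Array set as a block left that difference at 0.25 ± 0.08, with 0.28 within set A and 0.20 within set B. The 1420089_at probe set read 10.13, 10.47, 10.05 and 9.83 on the WT arrays, 10.06, 10.12 and 10.23 on the he arrays and 9.97, 10.02 and 9.87 on the me arrays. The me arrays lay below all he arrays there, with a difference of -0.18 ± 0.14, the opposite direction to 1448306_at.

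The remaining Nfkbia probe sets, 1438157_s_at and 1449731_s_at, gave me minus WT differences of -0.03 ± 0.08 and 0.20 ± 0.11. Over the 5 probe sets the me minus WT difference ran from -0.17 to 0.20 and was above 0 at 2 of them. Without normalisation between arrays it ran from -0.30 ± 0.30 at 1420088_at to 0.12 ± 0.24 at 1448306_at, with 0.04 ± 0.39 at 1449731_s_at. After the mean of each array set was subtracted, the 10 pairings of the 5 probe sets correlated between -0.80 and 0.42 over the 10 arrays. These correlations are descriptions over arrays that share their amplification and scaling.

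Nfkbie (IkappaB epsilon) had the widest gap between me and he of any member apart from Nfkb2 1429128_x_at. At 1431843_a_at the level was 8.49, 8.75, 8.18 and 8.33 on the WT arrays, 8.51, 8.24 and 8.12 on the he arrays and 8.82, 8.51 and 8.55 on the me arrays. The lowest me array and the highest he array met at 8.51, and did not overlap in the unrounded values, while the WT range spanned most of both. The me minus he difference was 0.34 ± 0.16 (95% interval -0.03 to 0.70, limma adjusted p = 0.9999), and 0.24 ± 0.10 with array set as a block (unadjusted p = 0.0448). At 1458299_s_at the level was 9.96, 10.52, 9.34 and 9.78 on the WT arrays, 10.04, 9.76 and 9.30 on the he arrays and 10.44, 9.97 and 10.14 on the me arrays. The groups overlapped there, with me minus he at 0.48 ± 0.29 and, with the block, 0.31 ± 0.20. Without he 3 that difference was 0.29 and without he 1 it was 0.64. Both probe sets had me minus WT differences above 0, of 0.19 ± 0.15 and 0.29 ± 0.27, and he minus WT differences below 0, of -0.15 ± 0.15 and -0.20 ± 0.27. The set-centred values of the 2 probe sets correlated at 0.93 over the 10 arrays.

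Nfkbib (IkappaB beta) was read by 1421266_s_at at 9.09, 9.47, 8.61 and 8.85 on the WT arrays, 9.10, 8.68 and 8.96 on the he arrays and 9.35, 9.09 and 9.25 on the me arrays. The WT arrays alone covered 0.86 log2 units, set A above set B. The me minus WT difference was 0.22 ± 0.19, and 0.16 ± 0.12 with the block. The other probe set, 1446718_at, gave 0.04 ± 0.23 and, with the block, -0.05 ± 0.08.

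Nfkbiz encodes IkappaB zeta, a nuclear member of the family that binds NF-kappa B dimers on chromatin. At its brightest probe set, 1417483_at, the level was 11.64, 11.32, 11.44 and 11.20 on the WT arrays, 11.77, 11.53 and 10.86 on the he arrays and 11.70, 11.09 and 11.27 on the me arrays. The he arrays spanned 0.91 log2 units, the widest range of the 3 groups, and enclosed all the others. Its me minus WT difference was -0.05 ± 0.23 (95% interval -0.56 to 0.47). The differences at 1448728_a_at and 1457404_at were 0.04 ± 0.11 and -0.14 ± 0.13. The 3 probe sets correlated at 0.11 to 0.48 after set centring.

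Tnfaip3 (A20) removes activating ubiquitin chains from adaptors of the pathway, and its loss is known to cause inflammation. At 1433699_at its level was 13.13, 12.75, 12.67 and 12.83 on the WT arrays, 13.11, 12.90 and 12.48 on the he arrays and 13.12, 13.01 and 12.97 on the me arrays. The me arrays lay together at the upper end of the WT range, between WT 4 and WT 1. At 1450829_at the level was 8.03, 7.95, 7.71 and 7.75 on the WT arrays, 8.11, 7.96 and 7.68 on the he arrays and 8.13, 7.87 and 8.07 on the me arrays. The me minus WT differences were 0.19 ± 0.16 (95% interval -0.17 to 0.55) and 0.17 ± 0.13 (95% interval -0.12 to 0.45), with overlapping groups at both. With array set as a block they were 0.16 ± 0.13 and 0.12 ± 0.07. Without normalisation between arrays they were 0.01 ± 0.43 and 0.15 ± 0.09, and with centring on the array median 0.03 ± 0.50 and 0.17 ± 0.15. The 2 probe sets correlated at 0.80 after set centring.

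Across the members, 13 of 19 probe sets had a me minus WT difference above 0, beside 49.9% of all probe sets, with a median of 0.08 beside -0.0002. With array set as a block the count was 12 of 19 beside 46.3%. For me minus he 14 of 19 were above 0 beside 54.1% (median 0.06 beside 0.01), and 13 of 19 beside 47.2% with the block. For he minus WT 9 of 19 were above 0 beside 46.0%, and 12 of 19 beside 48.9% with the block. Without normalisation between arrays the he minus WT count was 6 of 19 beside 44.6%, and with centring on the array median 5 of 19 beside 35.9%. The comparisons share arrays, so these counts are not independent of each other, and probe sets of 1 gene are not separate genes. The counts and medians include Nfkb2 1429128_x_at. Its me minus WT and me minus he differences were below 0 without the block and above 0 with it. All 19 member probe sets lay above the median level of all probe sets, so the background holds fainter ones. The median absolute me minus WT difference was 0.15 for the members and 0.05 for all probe sets. Groups that did not overlap were counted at 0 of 19 in me against WT (background 1.64%, or 0.802% higher and 0.835% lower), 0 of 19 in he against WT (1.04%, or 0.469% higher and 0.573% lower) and 2 of 19 in me against he (2.71%). Those 2 were Nfkbie 1431843_a_at, higher in me (background 1.61%), and Nfkbia 1420089_at, lower in me (1.10%).

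**Figure D3:**
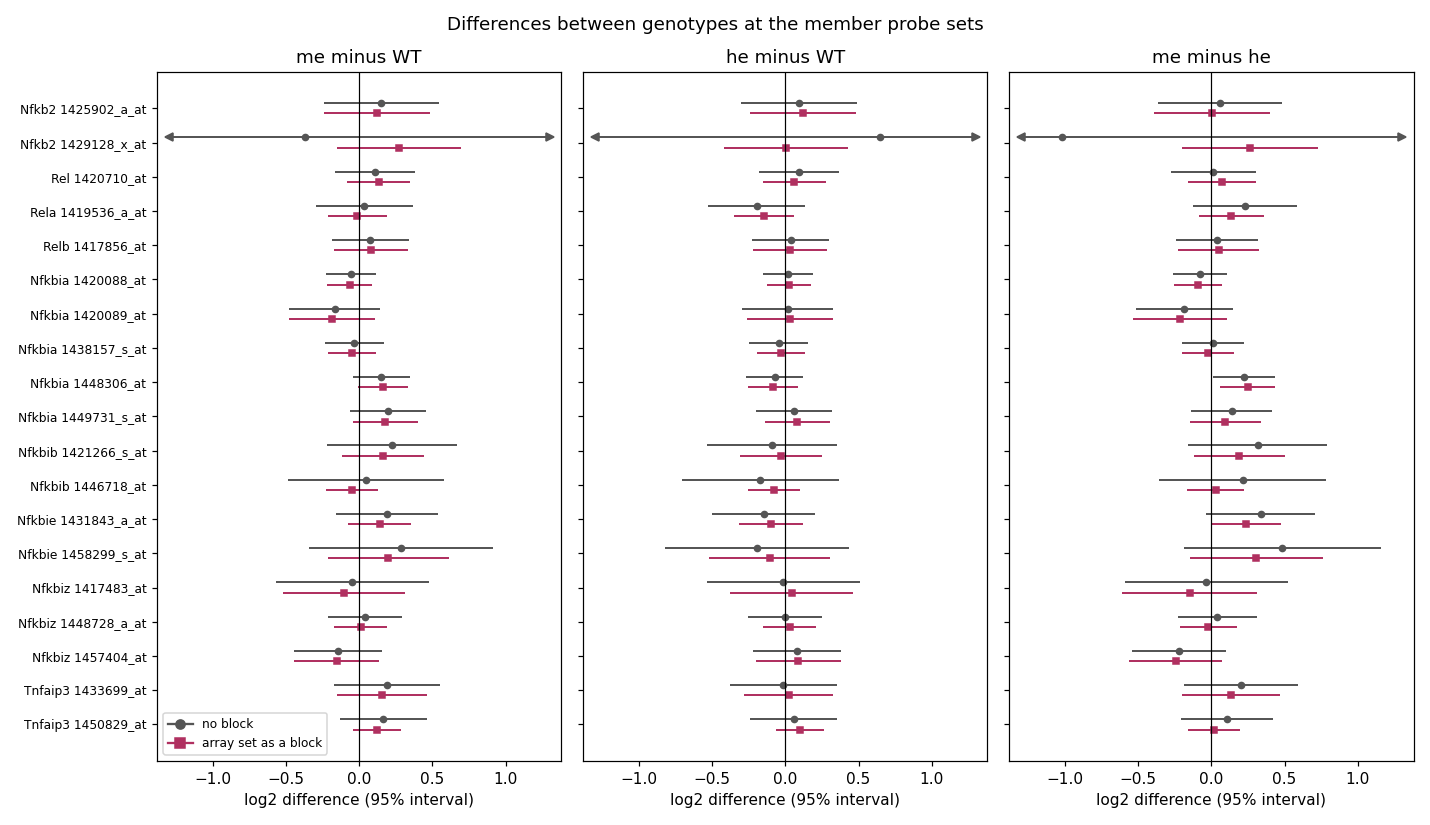
Log2 differences of the 19 member probe sets with 95% intervals, for me minus WT, he minus WT and me minus he, as grey circles without and red squares with array set as a block. In me minus WT and he minus WT every interval includes 0, in me minus he only Nfkbia 1448306_at without the block and Nfkbia 1448306_at and Nfkbie 1431843_a_at with it exclude 0, and arrowheads mark intervals that run past the axis.

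The genes around the members were taken from 3 lists, with each gene read at its brightest probe set. Over all 18193 genes, 0 passed in any of the 3 comparisons, and 50.1% had a me minus WT difference above 0 with a median of 0.0002. Of 26 kinases and adaptors upstream of NF-kappa B, 21 were measured. None of the 21 passed, 16 lay above 0 in me minus WT, and the median was 0.09 (15 and 0.04 with array set as a block). Birc2, which encodes the ubiquitin ligase cIAP1, had the smallest p of this list. It read 10.26, 9.98, 10.00 and 10.41 on the WT arrays, 10.38, 10.27 and 10.19 on the he arrays and 10.71, 10.64 and 10.63 on the me arrays. All 3 me arrays lay above all other arrays, and the me minus WT difference was 0.50 ± 0.11 (unadjusted p = 0.0015, limma adjusted p = 1). With the block it was 0.50 ± 0.11 (limma adjusted p = 0.6895), with 0.55 within set A and 0.44 within set B. Over all genes, 1.61% did not overlap between me and WT. The adaptor Bcl10, the kinase subunit Ikbkb and the TAK1 partner Tab1 followed at 0.20 ± 0.14, 0.13 ± 0.12 and 0.13 ± 0.13, with overlapping groups.

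Of 21 other inhibitors and brakes of the pathway, 20 were measured and none passed. In me minus WT 14 lay above 0, with a median of 0.06 (12 and 0.03 with the block). Usp18, an interferon-induced protease that removes ISG15, read 7.55, 7.58, 7.51 and 7.68 on the WT arrays, 7.87, 10.00 and 7.60 on the he arrays and 8.21, 7.67 and 8.82 on the me arrays. Its high values were he 2 and me 3, the groups overlapped, and the me minus WT difference of 0.65 ± 0.52 was 0.36 without me 3. The ubiquitin ligase gene Itch read 8.82, 8.69, 8.73 and 8.74 for WT, 8.85, 8.60 and 8.41 for he, and 8.90, 8.84 and 8.84 for me. Its me and WT arrays did not overlap, with a difference of 0.11 ± 0.10 (limma adjusted p = 1). The A20 partners Tnip1 and Tnip2 gave 0.13 ± 0.11 and 0.09 ± 0.10.

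Of 48 genes known as NF-kappa B targets, 45 were measured and none passed. In me minus WT 21 lay above 0 and 24 below, with a median of -0.04 (20 above 0 and -0.02 with the block). At a limma unadjusted p under 0.05, 4 of the 45 were counted, beside 159 of all 18193 genes. With the block these counts were 6 and 923. Tnfrsf9, the costimulatory receptor 4-1BB, read 9.53, 9.94, 9.27 and 9.83 on the WT arrays, 9.59, 9.57 and 9.55 on the he arrays and 10.10, 9.80 and 10.26 on the me arrays. The me arrays lay above all he arrays and overlapped WT, with me minus WT at 0.41 ± 0.17 (unadjusted p = 0.0368, limma adjusted p = 1). Cd83, a surface protein of activated lymphocytes, had a difference of 0.40 ± 0.16, which was 0.72 within set A and 0.02 within set B. Csf2, the cytokine GM-CSF, and Slc39a8, a zinc transporter, had a lower mean in me, with differences of -0.33 ± 0.11 and -0.32 ± 0.13, and at Slc39a8 the groups did not overlap. Each of these had a limma adjusted p of 1.

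**Figure D4:**
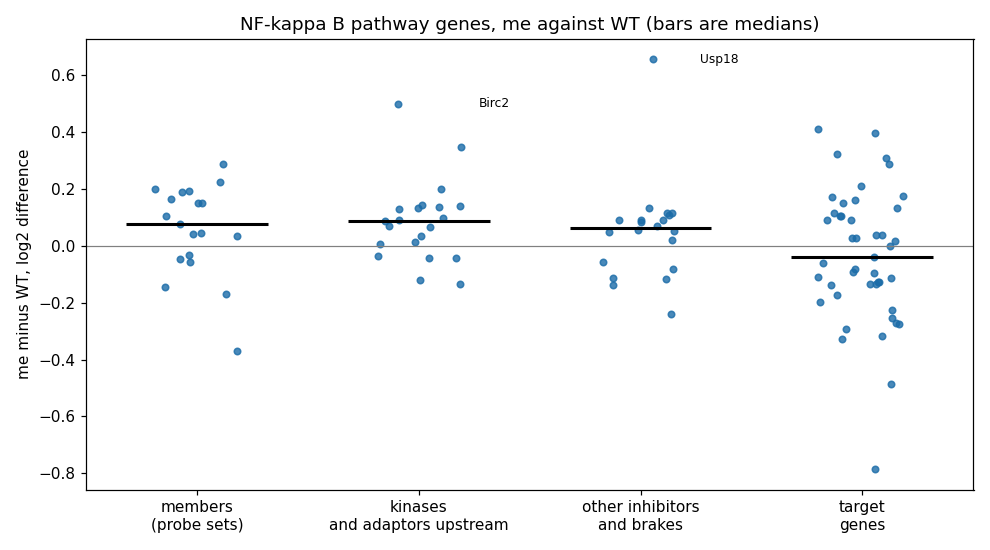
Log2 difference me minus WT of the 19 member probe sets and of the measured genes of each list (21 upstream kinases and adaptors, 20 other inhibitors and brakes, 45 targets), with each dot a probe set or gene and the bar the median of its column. The medians lie at 0.08, 0.09, 0.06 and -0.04, and the dots of Birc2 at 0.50 and Usp18 at 0.65 stand highest in their columns.

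The genes whose pattern was most like a member were found by Pearson correlation over the 10 arrays after set centring, among 11370 genes at or above the median level. For Rel these were Kctd9 (0.99), Vcpkmt (0.93), Slc26a2 (0.93) and Vav2 (0.92). Tnfaip3 at 1433699_at was followed by Arntl (0.97), Baz2a (0.95), Ccdc28a (0.95) and Trmt10c (0.95), and the rank correlations of Baz2a and Ccdc28a were 0.79 and 0.82. The genes most like Nfkbia at 1420088_at were Frmd4b (0.94), Gpn2 (0.93), Rabl3 (0.93) and Isy1 (0.93), and the rank correlation of Frmd4b was 0.76. These are the highest of 11370 values over 10 arrays that share amplification and scaling, given as a description.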

How the data were processed

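RNA from 10 samples was hybridised to Affymetrix arrays, 1 array per sample. The authors deposited 1 intensity per probe set and array, on a linear scale. How they summarised the probes, corrected the background and scaled the arrays is not given in the sources used here. Deposited array medians ran from 148 to 188. The table has 45101 probe sets; without its 64 controls, 45037 were tested, of which the array annotation gave 34945 a single gene, 932 several and 9160 none. Before testing, log2(intensity + 32) was taken and quantile normalised between arrays. The 3 genotypes were compared in 1 limma fit of all 10 arrays (limma 3.58.1, R 4.3.3; lmFit and eBayes; 7 residual degrees of freedom). Benjamini-Hochberg adjustment ran over all probe sets, and the threshold was 0.05. The number of arrays limits the precision. The fit was tested on simulated data.

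The members and gene lists were chosen with earlier results of these data known, and 137 of 150 list and marker entries matched a measured gene. Named genes are the members, Ptpn6, up to 4 genes per pathway list with the smallest p for me against WT, and the 4 genes most like Rel, Nfkbia and Tnfaip3. A gene outside the members is read at the probe set with the highest mean. Array sets came from average-linkage clustering on correlation. The labels do not say whether the replicate numbers pair the arrays, and a check by correlation could not decide it. Alternatives were array set as a block, also with me 3 in the other set, a replicate block, within-set fits, only the groups compared, pseudocounts of 1 and 128, a low-value filter, no normalisation, median centring, an intensity trend with a robust prior, and leaving out each array. The genes named from the marker lists (Jchain, Xbp1, Sdc1, S100a8, S100a9 and Ly86) were chosen after their values were seen. Coordinates and promoter sequences are from RefSeq on GRCm38.p6.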

Additional observations from a re-analysis of the deposited data

How the results depend on the processing

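No member probe set passed in any setting, and the lowest limma adjusted p over 1767 member results was 0.653. Over all probe sets, me against WT called 3 with array set as a block instead of 0, and leaving out single arrays, with or without that block, gave 0 to 5 for me against WT, 0 to 2 for me against he and 0 to 2 for the F test. Differences of members changed sign as follows, none of them called, and the largest was Nfkb2 1429128_x_at, whose me minus he difference was -1.02 without a block. Deviations of same-numbered arrays correlated between -0.87 and 0.94. The values were positive where both arrays lay in the same array set and negative where they did not. They follow the array sets, so they cannot decide whether replicate numbers pair the arrays. With a replicate block, me minus WT became 0.23 at Nfkb2 1429128_x_at, -0.011 at Rela and -0.033 at Nfkbib 1446718_at, and he minus WT -0.0798 at Nfkbia 1420089_at, with 0 members called. With array set as a block, me minus WT became 0.27 at Nfkb2 1429128_x_at, -0.012 at Rela and -0.048 at Nfkbib 1446718_at. In the same setting he minus WT became 0.044 at Nfkbiz 1417483_at, 0.029 at Nfkbiz 1448728_a_at and 0.022 at Tnfaip3 1433699_at, and me minus he 0.26 at Nfkb2 1429128_x_at, -0.022 at Nfkbia 1438157_s_at and -0.021 at Nfkbiz 1448728_a_at. With me 3 in the other set, me minus WT became 0.016 at Nfkbiz 1417483_at, and he minus WT 0.0501 there, 0.024 at Nfkbiz 1448728_a_at and 0.027 at Tnfaip3 1433699_at. Without normalisation, he minus WT became -0.23, -0.16 and -0.19 at Nfkbia 1420088_at, 1420089_at and 1449731_s_at, and me minus he 0.11 at Nfkbiz 1417483_at. Median centring gave -0.25, -0.18 and -0.21 for these Nfkbia probe sets, -0.019 at Relb and 0.15 for me minus he at Nfkbiz 1417483_at. Within-set differences also had opposite signs in set A and set B at some members. Among them, me minus WT was 0.26 in set A and -0.049 in set B at Rel. It was -0.38 and 0.074 at Nfkbia 1420089_at, and 0.15 and -0.20 at Nfkbiz 1448728_a_at. For he minus WT, Nfkbia 1420089_at gave -0.23 in set A and 0.23 in set B. In these values he 1 stands alone for he in set A, and me 2 for me in set B. The cause of these changes was not tested.

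Leaving out single arrays, with or without the block, changed the sign in 30 of 57 member differences and in none of the other 27. The ranges of me minus WT were -1.63 to 0.43 at Nfkb2 1429128_x_at, -0.073 to 0.0025 at Nfkbia 1438157_s_at, -0.11 to 0.24 at Nfkbib 1446718_at, -0.22 to 0.085 at Nfkbiz 1417483_at, -0.047 to 0.17 at Nfkbiz 1448728_a_at, -0.092 to 0.13 at Rela and -0.0077 to 0.16 at Relb. The ranges of me minus he were -0.15 to 0.24 at Nfkb2 1425902_a_at, -2.37 to 0.41 at Nfkb2 1429128_x_at, -0.0904 to 0.063 at Nfkbia 1438157_s_at, -0.063 to 0.41 at Nfkbib 1446718_at, -0.34 to 0.16 at Nfkbiz 1417483_at, -0.072 to 0.17 at Nfkbiz 1448728_a_at, -0.022 to 0.17 at Rel, -0.021 to 0.10 at Relb and -0.051 to 0.20 at Tnfaip3 1450829_at. The ranges of he minus WT were -0.089 to 0.25 at Nfkb2 1425902_a_at, -0.11 to 2.00 at Nfkb2 1429128_x_at, -0.018 to 0.074 at Nfkbia 1420088_at, -0.081 to 0.14 at Nfkbia 1420089_at, -0.095 to 0.046 at Nfkbia 1438157_s_at and -0.013 to 0.16 at Nfkbia 1449731_s_at. They were -0.23 to 0.061 at Nfkbib 1421266_s_at, -0.31 to 0.0059 at Nfkbib 1446718_at, -0.39 to 0.011 at Nfkbie 1458299_s_at, -0.20 to 0.25 at Nfkbiz 1417483_at, -0.081 to 0.088 at Nfkbiz 1448728_a_at, -0.088 to 0.14 at Relb, -0.15 to 0.16 at Tnfaip3 1433699_at and -0.038 to 0.18 at Tnfaip3 1450829_at.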

Other observations

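The shift of Nfkb2 1429128_x_at between the array sets was shared by few probe sets. Of 45037, 74 shifted by 3 or more on the log2 scale, and 29, with this one, shifted by at least as much as it did. All 29 were higher in set B. Of these 29, 13 carry the suffix _x_at (44.8%), beside 5.42% of all probe sets. Cd8a, a marker of CD8 T cells, showed the same kind of disagreement between its probe sets: 1440164_x_at and 1440811_x_at shifted by 4.51 and 4.41, while 1425335_at, 1444078_at and 1451673_at shifted by 0.26, 0.41 and 0.25. These probe sets were chosen after their values were seen, and the cause was not tested.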
